A study of Arabidopsis thaliana with 8 samples.

Results

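A set of 51 Arabidopsis genes gave bright array signals in wild-type plants both at 4 weeks and at 3 weeks of age. The genes were chosen by the measured signal itself. All 3439 probes were ranked within each array, the ranks were averaged over the 4 arrays of an age, and probes in the top 20% at 4 weeks and also in the top 20% at 3 weeks were kept. Of the 692 probes that the platform annotation pairs with exactly 1 gene, 57 met this rule. Leaving out 14 listed genes of photosynthesis, its assembly and pigment synthesis, of which 6 had met it, gave the 51. Because the ranks of these same arrays chose the genes, their levels and their differences between the ages are given as a description, and nothing is supported with them.

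The samples were total RNA of wild-type plants of ecotype Columbia 0, a laboratory line, aged 4 weeks (4 arrays) or 3 weeks (4 arrays). No treatment or mutation is named for either age. Neither the organ, the growth conditions, the array type nor the number of plants behind the arrays is stated, so p-values measure only the spread between arrays. Bulk RNA also cannot tell fewer cells of a type from less RNA per cell.

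Most proteins of the chloroplast are encoded in the nucleus, made in the cytosol and imported. Genes for such proteins are therefore read in the same RNA as genes for the nucleus, the cytosol and the membranes. The brightness of a probe depends on its own sequence and length as well as on its transcript, so a bright probe is not by itself an abundant transcript, and the intensities of different genes below are not set against each other.

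The deposited values were array intensities on a linear scale from 0 to 100 in arbitrary units. Their shape differed between the ages, which decides how any difference reads. The array medians were 0.3901 to 0.4448 at 4 weeks and 0.0239 to 0.0308 at 3 weeks, although the summed intensity per array was similar, 3176 to 3359 at 4 weeks and 2882 to 3084 at 3 weeks. The probe in place 10 from the top had an intensity of 30.7 to 41.0 on the 4-week arrays and 77.9 to 88.6 on the 3-week arrays. At place 100 the ages came close, with 3.02 to 3.51 at 4 weeks and 3.49 to 3.66 at 3 weeks. At place 687, the last place in the top 20%, the intensity was 0.852 to 0.945 at 4 weeks and 0.190 to 0.199 at 3 weeks. A gene that kept its place near this edge thus had a deposited intensity about 4.58 times as high at 4 weeks, and one that kept its place near the top had a lower one.

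**Figure D1:**
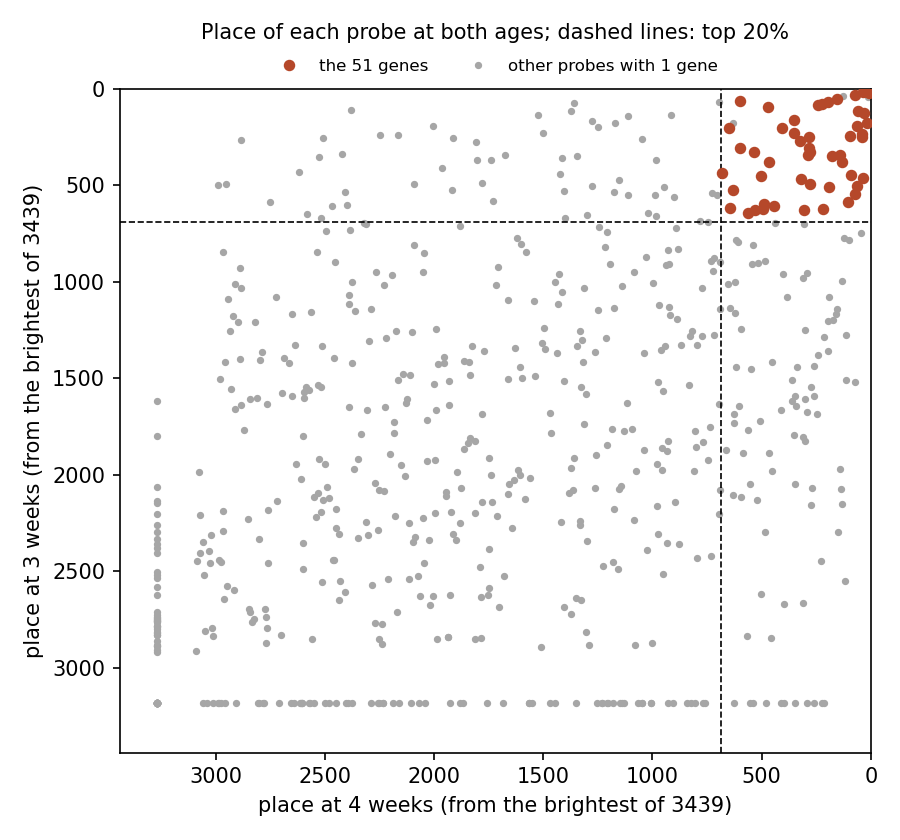
Place of each probe with 1 gene, counted from the brightest of 3439 probes by mean rank, at 4 weeks (horizontal axis) and 3 weeks (vertical axis). The 51 genes fill the upper right corner because the rule put them there, and the 6 grey points in that corner are the genes left out. Within the corner the Spearman correlation of the ages was 0.390 over 51 genes. The rule cut the corner by these same ranks, which narrows their range, so no conclusion is drawn from this value.

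Across all probes, 687 were in the top 20% at each age and 297 at both, which is 43.2% of either list. Among probes with 1 gene, 147 were bright at 4 weeks and 114 at 3 weeks, and the 57 bright at both are 38.8% of the first and 50% of the second. On all 8 arrays taken singly, 38 of the 51 genes were in the top 20%, 6 were there on 7 arrays and 6 on 6. AT5G27860 reached it on only 4 arrays, with intensities of 0.877, 0.824, 0.963 and 0.989 at 4 weeks and 0.139, 0.190, 0.274 and 0.383 at 3 weeks (here and below in the order of replicates 1 to 4). It is the gene of the set whose membership rests most on the average.

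The line itself was not a gap in the data. Just inside it at 4 weeks lay AT3G09050, the last of the 51 at place 682 of 687, with 0.884 ± 0.163 at 4 weeks and 0.392 ± 0.0507 at 3 weeks (mean ± SD, n = 4 arrays, as for all values in this form). Next to it, and dim at 3 weeks, were AT5G19750 (0.896 ± 0.121 at 4 weeks and 0.0170 ± 0.0048 at 3 weeks) and AT1G70200 (0.895 ± 0.0187 and 0.0971 ± 0.0346). Just outside were CRR21 (0.866 ± 0.068 and 0.115 ± 0.0199), AT3G46950 (0.880 ± 0.0941 and 0.00888 ± 0.00733) and AT3G51320 (0.860 ± 0.0191 and 0.0767 ± 0.0418). At 3 weeks the nearest inside were AT3G03890 (0.851 ± 0.226 at 4 weeks and 0.206 ± 0.088 at 3 weeks), AT3G14890 (0.198 ± 0.0369 and 0.208 ± 0.0693) and AT3G58610 (0.521 ± 0.070 and 0.205 ± 0.0519), none of them bright at 4 weeks. Just outside at 3 weeks were CML30 (0.823 ± 0.0601 and 0.199 ± 0.0672), AT1G15140 (0.251 ± 0.0319 and 0.194 ± 0.0592) and AT5G03370 (1.14 ± 0.134 and 0.199 ± 0.0835). AT5G03370, bright at 4 weeks, was thus left out by a margin smaller than its own spread at 3 weeks.

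In deposited intensity most of the 51 genes were higher at 4 weeks, in a share close to that of all probes. A smaller group was lower. All 4 arrays of 4 weeks lay above all 4 of 3 weeks for 36 genes (70.6%), against 68.3% of all 3439 probes. All 4 lay below for 10 genes (19.6%), against 8.69% of all probes. The ranges overlapped for 5 genes, AT4G22830, AT1G49850, PIFI, AT5G55580 and AT5G14590. The gene means ran from 0.884 to 35.9 with a median of 1.55 at 4 weeks, and from 0.208 to 81.5 with a median of 0.574 at 3 weeks. None of the 51 was listed at 0 or stood at the ceiling of the scale on any array.

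**Figure D2:**
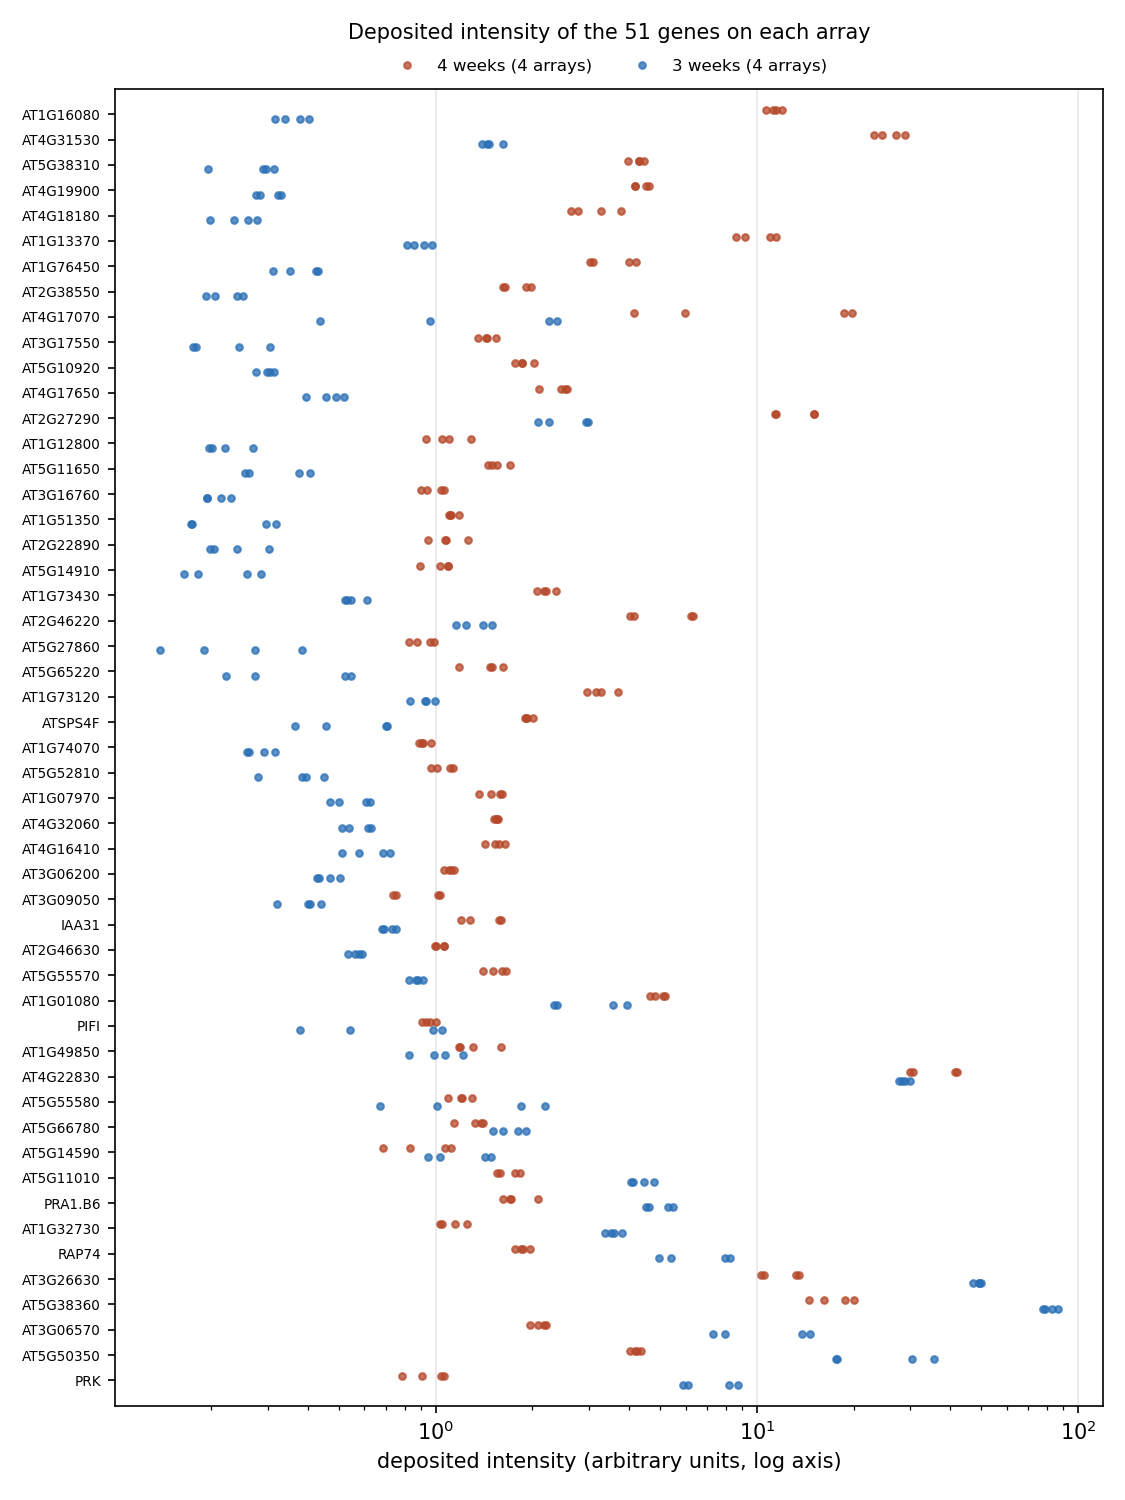
Deposited intensity (arbitrary units, log axis) of each of the 51 genes on the 4 arrays of 4 weeks (red) and the 4 arrays of 3 weeks (blue), ordered by the ratio of the age means. The 36 genes at the top have every 4-week array to the right of every 3-week array, and 10 genes toward the bottom, from AT5G66780 down to PRK, have the opposite order, with AT5G14590 among them overlapping.

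After quantile normalization, which gives every array the same distribution, the set divided more evenly. With limma (Benjamini-Hochberg adjusted p below 0.05 over all 3439 probes), 21 of the 51 were called higher at 4 weeks, where 29.2% of all probes were, and 18 were called lower, where 27.4% of all probes were. The other 12 did not pass. Their log2 differences, 4 weeks minus 3 weeks, lay between -0.21 and 0.40. The median log2 difference was 0.18 for the 51 and 0 for all probes. In this quantile-normalized fit all 51 genes stood above the floor that replaced low values, on all 8 arrays, so no gene was lost to that filter. The rule drew on both sides of this contrast, so these shares only describe the set.

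PRK, RAP74, PRA1.B6, IAA31, PIFI and ATSPS4F are the only 6 of the 51 that the RefSeq table gives a symbol other than the locus code. Roles of locus-coded genes below are general knowledge of Arabidopsis, given where certain, and the grouping by role was made after the values were seen. In the accounts of single genes, higher, lower and fold refer to deposited intensity, log2 differences are those after quantile normalization, and the genes whose direction turns under another scaling are named in the account of the scalings. The labels do not say whether replicates 1 and 2, or 3 and 4, are separate samples of plants or repeat arrays of 1 RNA. With the values of each such pair averaged first, 15 of the 39 calls were lost (adjusted p = 0.0515 to 0.184) and 0 were gained, at unchanged differences. That fit has fewer values per age, and the share of all probes that lost a call was not counted. The loss therefore cannot be read as a trait of these genes. The 15 genes were AT2G46220, AT4G17070, AT1G01080, AT4G32060, ATSPS4F and AT5G11650, called higher, and AT5G55580, AT3G09050, PIFI, AT3G06570, AT5G50350, AT1G49850, AT3G06200, AT1G74070 and AT2G46630, called lower.

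Among the enzymes of carbon and nitrogen metabolism, PRK and ATSPS4F went opposite ways. PRK, the phosphoribulokinase that regenerates the acceptor of carbon dioxide in the Calvin cycle, had intensities of 1.04, 1.06, 0.786 and 0.909 at 4 weeks, against 8.19, 8.76, 5.89 and 6.09 at 3 weeks. The groups lay far apart, 7.61-fold lower at 4 weeks, and the log2 difference of -3.33 (SE 0.11) was the lowest of the set. PRK stood in place 601 at 4 weeks, not far inside the limit of 687, against place 64 at 3 weeks. It was the 1 member among the 2 measured genes of a list of 10 Calvin cycle genes, and SBPASE, the other, was not bright at either age. Of these 2 genes 0 were called higher and 1, PRK, lower, under each of the 4 scalings compared below.

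ATSPS4F, a sucrose phosphate synthase of the path that makes sucrose in the cytosol, had 1.93, 1.91, 1.90 and 2.01 at 4 weeks, against 0.706, 0.703, 0.365 and 0.455 at 3 weeks. The 4-week arrays were nearly equal, while at 3 weeks replicates 1 and 2 were above 3 and 4. The log2 difference was 0.81 (SE 0.15). AT5G10920, the argininosuccinate lyase of arginine synthesis, had 1.77, 1.86, 1.86 and 2.02 at 4 weeks, against 0.306, 0.276, 0.298 and 0.315 at 3 weeks. Its arrays varied less than the median of the set at both ages (coefficient of variation, the SD over the mean, 5.67% at each). It was 6.28-fold higher at 4 weeks, and limma gave a log2 difference of 1.22 (SE 0.12).

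AT5G14590, an isocitrate dehydrogenase that uses NADP, had 1.07, 1.12, 0.834 and 0.684 at 4 weeks, against 0.944, 1.03, 1.49 and 1.42 at 3 weeks. The ages overlapped, since at 4 weeks replicates 3 and 4 were the low ones and at 3 weeks the high ones. The log2 difference was -1.44 (SE 0.19), called lower. AT5G52810, a reductase in the synthesis of the defence signal pipecolic acid, had 1.06 ± 0.0799 at 4 weeks and 0.377 ± 0.0706 at 3 weeks. It kept a similar place, 502 at 4 weeks and 449 at 3 weeks, and the normalized difference (log2 -0.18) was not past the threshold, which it passed as lower without replicate 2 of 3 weeks (adjusted p = 0.00637). AT3G06200, a guanylate kinase, had 1.10 ± 0.0326 and 0.459 ± 0.0361, with a log2 difference of -0.27 (SE 0.05), called lower after normalization although its deposited intensity was higher at 4 weeks.

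A second group binds RNA or DNA of the organelles or builds the plastid ribosome. AT1G01080, a protein with RNA recognition motifs, had 4.83, 5.16, 4.65 and 5.11 at 4 weeks, against 2.39, 2.34, 3.57 and 3.94 at 3 weeks. Every 4-week array was above every 3-week array, and the 3-week arrays were split into 2 low and 2 high ones. Its log2 difference was 1.10 (SE 0.19). AT3G26630, of the pentatricopeptide repeat family that binds organelle RNA, had 10.5, 10.3, 13.2 and 13.5 at 4 weeks, against 49.0, 47.2, 49.0 and 49.7 at 3 weeks. It was 4.10-fold lower in deposited intensity at 4 weeks and stood in place 34 there, against place 17 at 3 weeks. The normalized log2 difference was -1.25 (SE 0.12).

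AT5G65220, which encodes protein L29 of the plastid ribosome, had 1.18, 1.48, 1.50 and 1.62 at 4 weeks, against 0.222, 0.273, 0.546 and 0.521 at 3 weeks. The ages did not overlap. The log2 difference was 0.40 (SE 0.24), not past the threshold with limma (adjusted p = 0.204) but past it once replicate numbers were blocked (adjusted p = 0.0236). It was also not past it with replicates 1 and 2, and 3 and 4, averaged first (adjusted p = 0.461), nor from replicates 1 and 2 alone (0.166) or 3 and 4 alone (0.0681). It was the only one of the 6 measured genes of 21 listed plastid ribosomal proteins in the set, and of those 6 genes 0 were called higher and 2 lower, against 2 and 0 without scaling between arrays, 0 and 3 with arrays scaled to a common median, and 1 and 1 after cyclic loess.

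AT5G55580, named mTERF9 in the RefSeq synonyms and a member of a family of organelle nucleic acid binding proteins, had 1.30, 1.20, 1.21 and 1.09 at 4 weeks, against 1.01, 0.671, 1.85 and 2.19 at 3 weeks. The 4-week arrays fell inside the range of the 3-week arrays, and limma gave -1.01 (SE 0.25) on the log2 scale, called lower. AT1G12800, an RNA-binding protein with an S1 domain, had 0.934, 1.05, 1.10 and 1.29 at 4 weeks, against 0.202, 0.221, 0.197 and 0.271 at 3 weeks. The deposited groups were apart, 4.91-fold, and its place was 493 at 4 weeks and 622 at 3 weeks. The log2 difference of 0.27 (SE 0.17) was not past the threshold.

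Among genes of certain role, 3 were grouped by a link to the thylakoid, in the place or the role of their protein. Listed genes of photosynthesis had been left out beforehand, so this is not a full count. PIFI, needed for the chlororespiratory reduction of plastoquinone seen as a fluorescence rise after light, had 1.0, 0.932, 0.908 and 0.957 at 4 weeks, against 0.542, 0.377, 0.983 and 1.05 at 3 weeks. Its 4-week arrays were close together, and the 3-week arrays lie on both sides of them. Its log2 difference of -0.89 (SE 0.22) was called lower, whereas its deposited mean was 1.29-fold higher at 4 weeks. AT1G76450, a PsbP domain protein, had 4.20, 4.00, 3.02 and 3.09 at 4 weeks, against 0.430, 0.423, 0.353 and 0.311 at 3 weeks. That is 9.44-fold higher at 4 weeks, with a log2 difference of 2.30 (SE 0.11). AT1G74070, of the cyclophilin family of protein folding helpers, had 0.917 ± 0.033 at 4 weeks and 0.283 ± 0.0273 at 3 weeks. Its log2 difference of -0.23 (SE 0.05) was called lower with limma, a call that was lost when replicate numbers were blocked (adjusted p = 0.0549).

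Of the nuclear proteins, RAP74 was lower at 4 weeks and AT1G13370 higher. RAP74, the large subunit of the general transcription factor TFIIF of RNA polymerase II, had 1.96, 1.87, 1.84 and 1.76 at 4 weeks, against 7.96, 8.22, 4.94 and 5.41 at 3 weeks. The ages were well apart although the 3-week arrays were uneven, and RAP74 was 3.57-fold lower at 4 weeks with a log2 difference of -1.85 (SE 0.11). AT1G13370, a histone of the H3 type that packs DNA into nucleosomes, had 9.15, 8.62, 11.5 and 11 at 4 weeks, against 0.923, 0.814, 0.975 and 0.859 at 3 weeks. It was 11.3-fold higher at 4 weeks, with a log2 difference of 3.33 (SE 0.12). Of 8 listed H3 and H4 histone genes 3 were measured, and all 3 were called higher at 4 weeks, as they were without scaling, against 2 with arrays scaled to a common median, where AT1G13370 turned to -0.44, and 2 after cyclic loess. AT1G13370 was the only one of them in the set. IAA31, of the family of repressors that auxin marks for breakdown, had 1.57, 1.60, 1.20 and 1.28 at 4 weeks, against 0.753, 0.730, 0.682 and 0.693 at 3 weeks. Its deposited groups were apart by 1.98-fold, whereas the log2 difference after normalization, -0.21 (SE 0.09), was not past the threshold. It was past it, as lower, when replicate 2 of 4 weeks was left out (adjusted p = 0.0424).

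Membranes and transport were represented by 4 genes of certain role. PRA1.B6, a receptor for prenylated Rab proteins of vesicle traffic, had 1.62, 2.08, 1.70 and 1.71 at 4 weeks, against 5.28, 5.48, 4.53 and 4.61 at 3 weeks. It was 2.80-fold lower at 4 weeks, with a log2 difference of -1.68 (SE 0.12). AT1G73430, a subunit of the COG tethering complex of the Golgi, went the other way, with 2.20 ± 0.123 at 4 weeks and 0.552 ± 0.0403 at 3 weeks and a log2 difference of 1.11 (SE 0.10). AT2G38550, of the family that exports fatty acids from plastids, had 1.91, 1.98, 1.62 and 1.64 at 4 weeks, against 0.240, 0.251, 0.193 and 0.205 at 3 weeks. In both ages replicates 1 and 2 were the higher ones, and the 4-week mean was 8.06-fold higher. AT4G32060, a calcium-binding regulator of calcium uptake into mitochondria, had 1.55, 1.54, 1.52 and 1.56 at 4 weeks, the smallest spread of the 51 genes at that age (coefficient of variation 1.12%), against 0.631, 0.615, 0.512 and 0.538 at 3 weeks. Its place was almost the same at both ages, 277.5 and 324, and its log2 difference of 0.18 (SE 0.05) was called higher with limma but not when replicate numbers were blocked (adjusted p = 0.0898).

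The remaining genes are named by locus only, and they hold the largest increases of the set. AT4G31530 had 23.2, 24.5, 27.1 and 28.9 at 4 weeks, against 1.45, 1.62, 1.39 and 1.47 at 3 weeks. AT1G16080 had 11.2, 10.7, 12 and 11.5 at 4 weeks, against 0.403, 0.379, 0.317 and 0.340 at 3 weeks. They were 17.5-fold and 31.5-fold higher at 4 weeks, the 31.5 being the highest ratio among the 51, with log2 differences after normalization of 4.48 (SE 0.09) and 4.33 (SE 0.07). AT5G38310 had 4.44, 4.28, 4.30 and 3.96 at 4 weeks, against 0.296, 0.195, 0.291 and 0.313 at 3 weeks, and AT4G19900 had 4.53, 4.61, 4.18 and 4.18, against 0.283, 0.276, 0.329 and 0.324. The ages were far apart in both genes, with the 4-week means 15.5-fold and 14.4-fold higher and log2 differences of 2.97 (SE 0.09) and 2.99 (SE 0.05).

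AT4G18180 had 2.64, 2.77, 3.77 and 3.28 at 4 weeks, against 0.199, 0.235, 0.260 and 0.277 at 3 weeks, a 12.9-fold difference. AT2G27290 had 15.1, 15.1, 11.4 and 11.5 at 4 weeks, against 2.98, 2.93, 2.08 and 2.26 at 3 weeks, a 5.18-fold difference. AT2G46220 had 4.02, 4.15, 6.22 and 6.34 at 4 weeks, against 1.24, 1.16, 1.40 and 1.50 at 3 weeks. In each of these 3 genes replicates 1 and 2 stood apart from 3 and 4 at both ages, and in each the ages still did not overlap. Their log2 differences were 2.37 (SE 0.20), 2.78 (SE 0.13) and 1.87 (SE 0.28).

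AT4G17070 was the most uneven gene of the set. It had 19.7, 18.6, 5.99 and 4.15 at 4 weeks, against 2.39, 2.26, 0.963 and 0.437 at 3 weeks. Its coefficients of variation, 67.5% at 4 weeks and 63.7% at 3 weeks, were the highest of the 51 at both ages. In deposited intensity the ratio between the ages was nevertheless alike, 8.24 from the means of replicates 1 and 2 and 7.25 from those of 3 and 4. Its log2 difference after normalization was 3.14 (SE 0.69), called higher over all arrays but not with each pair averaged first (adjusted p = 0.123). From replicates 1 and 2 alone the log2 difference was 3.66, and from 3 and 4 alone it was 2.63.

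AT4G22830 was near the top at both ages, in place 10 at 4 weeks and place 23 at 3 weeks. Its arrays read 29.9, 30.7, 41.9 and 41.3 at 4 weeks, against 28.2, 30.0, 29.0 and 27.6 at 3 weeks, so the ages overlapped. The deposited means differed by 1.25-fold, and the log2 difference was 1.34 (SE 0.11), called higher. AT5G38360 had 14.5, 16.2, 18.8 and 20 at 4 weeks, against 83.0, 86.3, 77.9 and 78.9 at 3 weeks. With AT3G26630, these are the 3 genes of the set in the top 1% of probes at both ages. AT5G38360 was 4.69-fold lower in deposited intensity at 4 weeks and stood in place 25 there, against place 11 at 3 weeks, with a normalized log2 difference of -1.30 (SE 0.08).

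Other genes lower at 4 weeks were AT5G50350, AT3G06570, AT1G32730, AT5G11010 and AT5G66780. AT5G50350 had 4.04, 4.16, 4.35 and 4.24 at 4 weeks, against 17.6, 17.7, 35.5 and 30.4 at 3 weeks. AT3G06570 had 2.17, 2.08, 2.20 and 1.96 at 4 weeks, against 7.29, 7.94, 14.6 and 13.8 at 3 weeks. Both were even at 4 weeks and split at 3 weeks, where replicates 3 and 4 were 1.87 times replicates 1 and 2 in each gene. Their age ratio depends on the arrays used, 4.31-fold lower at 4 weeks from replicates 1 and 2 and 7.67-fold lower from 3 and 4 for AT5G50350, and 3.59-fold and 6.84-fold for AT3G06570. AT1G32730 had 1.03, 1.05, 1.15 and 1.25 at 4 weeks, against 3.36, 3.52, 3.60 and 3.81 at 3 weeks, and its log2 difference was the next lowest after PRK, -2.26 (SE 0.13). AT5G11010 had 1.83, 1.59, 1.55 and 1.77 at 4 weeks, against 4.11, 4.07, 4.77 and 4.46 at 3 weeks. AT5G66780 was the mildest of these, with 1.14, 1.38, 1.33 and 1.40 at 4 weeks, against 1.62, 1.91, 1.51 and 1.80 at 3 weeks. In all 5 genes the ages were separate in the deposited values. Limma called all 5 lower, with log2 differences of -1.95 (SE 0.32) for AT5G50350, -2.06 (SE 0.28) for AT3G06570, -1.66 (SE 0.11) for AT5G11010 and -1.08 (SE 0.12) for AT5G66780 beside that of AT1G32730. With each replicate pair averaged first, the calls of AT5G50350 (adjusted p = 0.0753) and AT3G06570 (adjusted p = 0.0515) were lost.

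The genes not yet described were all higher in deposited mean at 4 weeks, by 1.28-fold to 6.38-fold. Called higher after normalization were AT4G17650 (2.41 ± 0.218 at 4 weeks and 0.465 ± 0.0529 at 3 weeks), AT1G73120 (3.27 ± 0.310 and 0.922 ± 0.0693), AT3G17550 (1.44 ± 0.0809 and 0.226 ± 0.0615) and AT5G11650 (1.55 ± 0.105 and 0.325 ± 0.0767). Called lower were AT3G09050, AT2G46630 (1.03 ± 0.0377 at 4 weeks and 0.565 ± 0.0232 at 3 weeks) and AT1G49850 (1.32 ± 0.196 and 1.03 ± 0.164). The first 4 had log2 differences of 1.39, 1.37, 0.83 and 0.68, and the last 3 of -0.56, -0.59 and -0.63. Not past the threshold were AT1G51350 (1.13 ± 0.0346 at 4 weeks and 0.241 ± 0.0776 at 3 weeks), AT1G07970 (1.51 ± 0.112 and 0.550 ± 0.0767), AT5G14910 (1.03 ± 0.0925 and 0.223 ± 0.058), AT3G16760 (0.985 ± 0.0755 and 0.208 ± 0.0175), AT4G16410 (1.54 ± 0.0909 and 0.623 ± 0.0968) and AT5G55570 (1.54 ± 0.110 and 0.871 ± 0.0362). AT2G22890 belongs with them and had 1.07, 0.946, 1.26 and 1.08 at 4 weeks, against 0.198, 0.240, 0.302 and 0.204 at 3 weeks. Leaving out 1 array made AT1G51350 pass as higher (adjusted p = 0.0433 without replicate 3 and 0.0393 without replicate 4 of 3 weeks) and AT1G07970 likewise (0.0268 without replicate 1 of 4 weeks). These 7 genes stood between place 281 and place 563.5 at 4 weeks and between 251 and 643 at 3 weeks, in a stretch where one and the same place went with a higher deposited intensity at 4 weeks.

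The direction of most of the 51 genes depends on how the arrays are scaled. Without scaling between arrays, limma called 36 higher at 4 weeks and 10 lower, where 49.7% of all probes were called higher and 7.65% lower. With every array scaled to a common median it called 1 higher and 44 lower (20% and 33.7% of all probes). After cyclic loess it called 40 higher and 1 lower (25.4% and 24.5% of all probes). The median log2 difference of the 51 was 1.64 without scaling, -2.23 under the common median and 0.94 after cyclic loess, while that of all probes was 0.41, -0.06 and 0. Without scaling, low 3-week values of some of the 51 were raised to the floor of that fit, which made their differences smaller. AT3G16760, for example, had a log2 difference of 1.90 there, beside a 4.73-fold ratio of its deposited means. The membership rests on ranks within an array and is the same under any scaling by a constant.

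Under quantile normalization, no scaling, the common median and cyclic loess, 8 genes of the set kept 1 sign. How many of all probes kept or turned their sign, or passed the threshold in all 4, was not counted. The counts of kept and turned signs given here therefore only describe the set. AT1G16080, AT4G31530 and AT5G38310 were higher at 4 weeks in all 4, and AT1G32730, AT3G06570, AT5G14590, AT5G50350 and PRK were lower in all 4. Only AT1G16080 among the higher and PRK among the lower were past the threshold in every one. AT1G16080 had log2 differences of 4.33, 4.98, 1.05 and 6.21 in that order of scalings, and PRK had -3.33, -2.92, -6.85 and -1.11. AT4G31530 and AT5G38310 came down to 0.19 and 0.04 under the common median. The other 26 genes with a positive log2 difference after quantile normalization all turned negative there, with values between -0.08 and -3.63. Among them were AT5G10920 (-1.28), AT1G76450 (-0.70), AT1G73430 (-1.93), AT2G38550 (-0.92) and AT4G32060 (-2.50). Without scaling, 10 genes turned from a negative to a positive value, namely IAA31, AT5G27860, PIFI, AT3G09050 (1.16), AT5G52810 (1.50), AT1G49850 (0.36), AT3G06200 (1.27), AT1G74070 (1.70), AT2G46630 (0.86) and AT5G55570 (0.82). After cyclic loess 15 did so, namely IAA31, AT5G27860, AT5G11010, AT3G26630, AT5G38360, RAP74, PRA1.B6, AT5G55580 (0.35), AT5G52810 (0.40), AT1G49850 (0.66), AT3G06200 (0.47), AT1G74070 (0.11), AT5G66780 (0.44), AT2G46630 (0.24) and AT5G55570 (1.11).

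**Figure D3:**
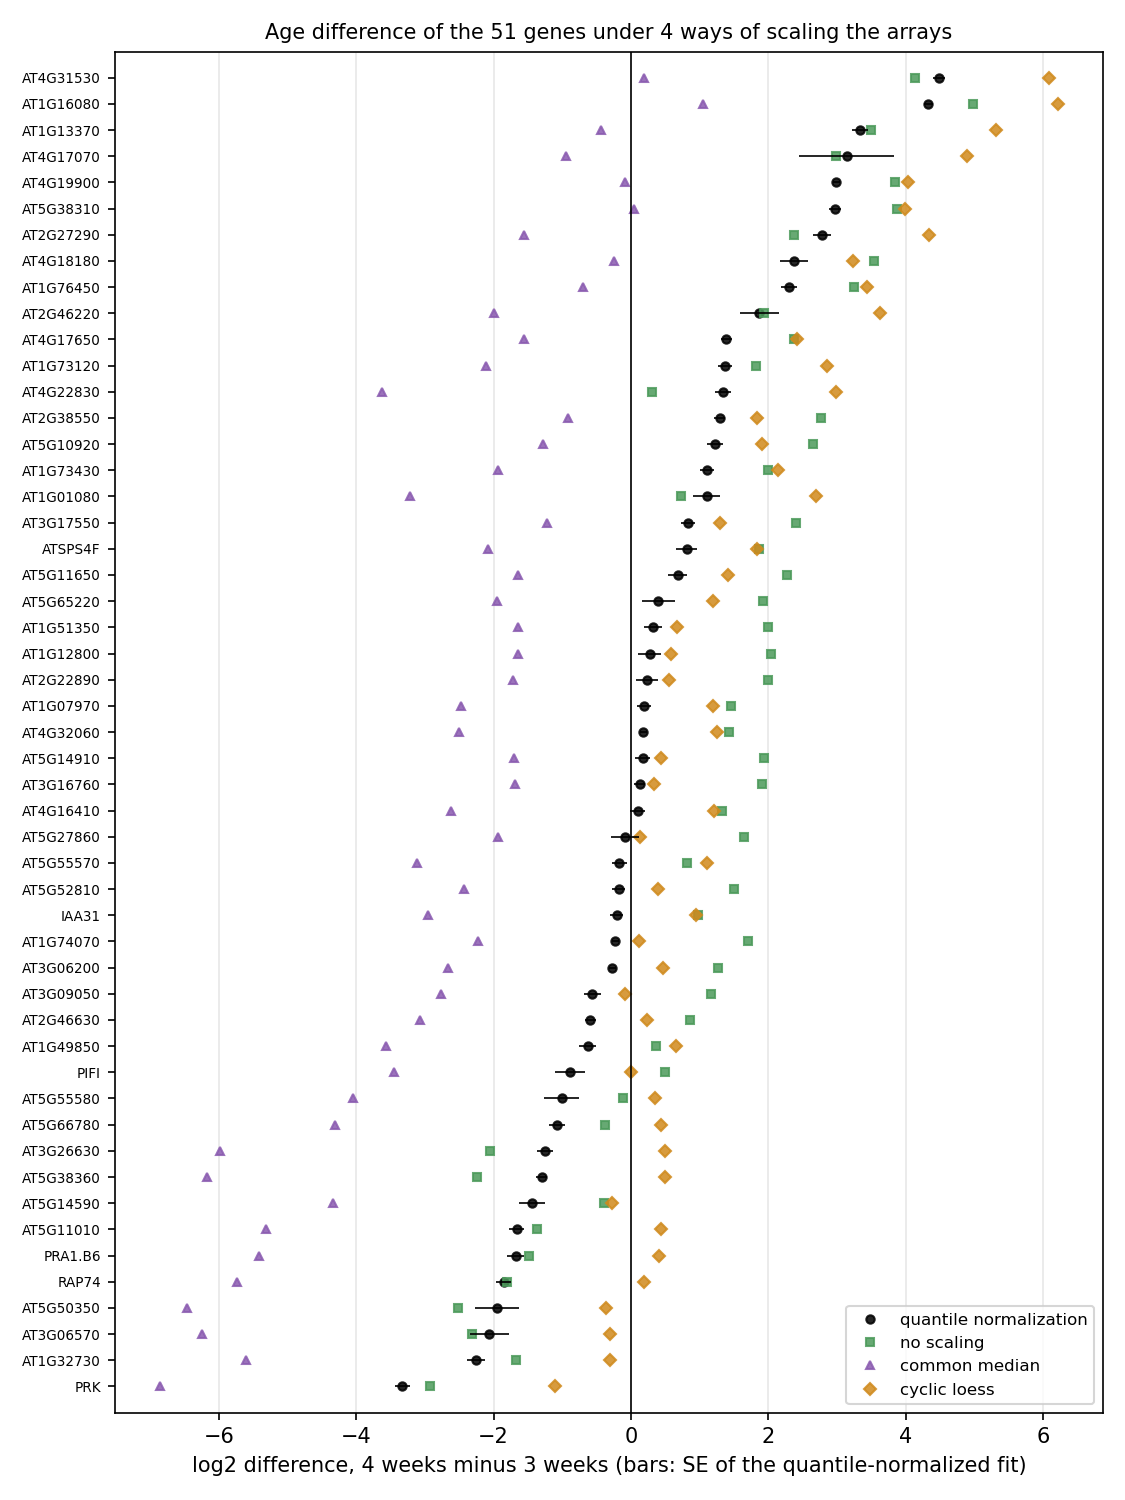
Log2 difference, 4 weeks minus 3 weeks, of the 51 genes after quantile normalization (black, with SE), without scaling (green), with arrays scaled to a common median (violet) and after cyclic loess (orange). The violet points lie left of 0 for 48 genes and the orange points right of 0 for 44, and AT1G16080 and PRK keep their side in all 4.

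Within an age, replicates 1 and 2 often stood apart from 3 and 4. At 4 weeks both arrays of one pair lay above both of the other for 34 of the 51 genes, where 49.8% of all probes did so, and at 3 weeks for 36 genes, where 39.1% of all probes did so. The split ran the same way at both ages for 14 genes (12.2% of all probes) and opposite ways for 10 (10.2% of all probes). The labels do not say what the numbers stand for. The part of this split in the age differences was not tested. The ratio of the ages lay on the same side of 1 in both pairs for 48 genes, with a median fold of 1.25 between the 2 ratios. This was not counted over all probes. The shape of the arrays alone gave a ratio of 2.78 at place 400 and 4.58 at place 687, so the 48 is only a description. The 3 exceptions were AT5G14590, AT5G55580 and PIFI. AT5G55580 was 1.48 times as high at 4 weeks in replicates 1 and 2 and 0.570 times in replicates 3 and 4, the largest disagreement of the set. PIFI had ratios of 2.10 and 0.918, and AT5G14590 had 1.11 and 0.522.

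**Figure D4:**
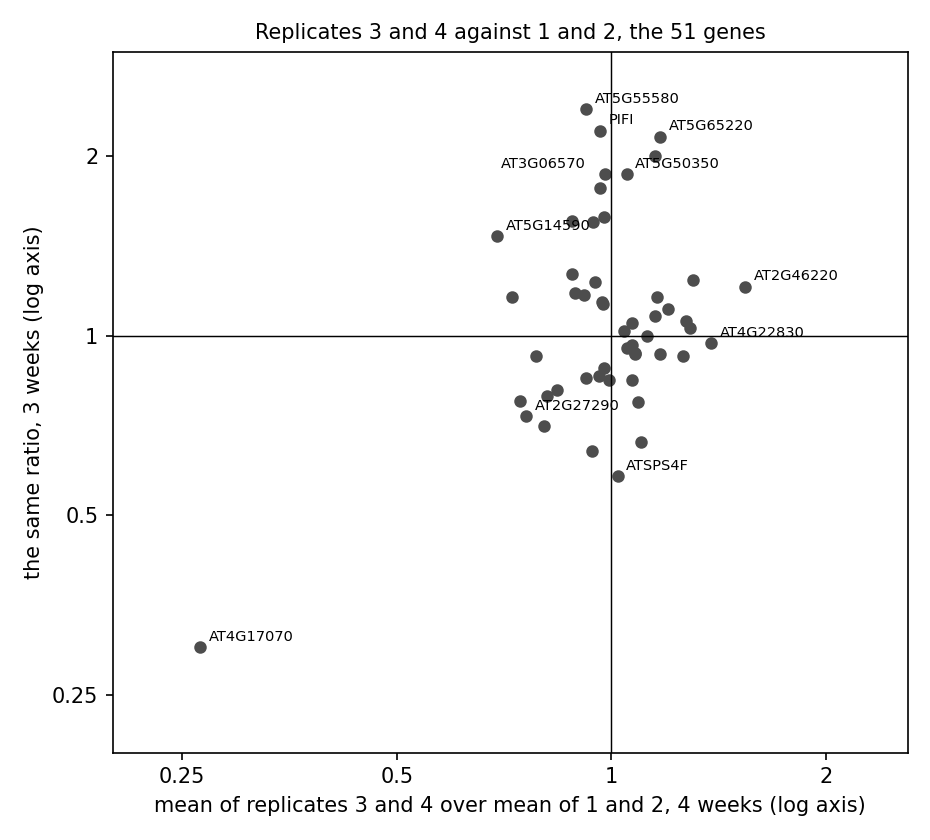
Mean of replicates 3 and 4 over the mean of replicates 1 and 2 for each of the 51 genes, at 4 weeks (horizontal, log axis) and at 3 weeks (vertical, log axis). AT4G17070 lies far below 1 at both ages (0.265 and 0.301), whereas AT5G55580 and PIFI are near 1 at 4 weeks (0.922 and 0.964) and above 2 at 3 weeks (2.40 and 2.21).

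The spread between arrays was smaller at 4 weeks. The median coefficient of variation over the 51 genes was 8.37% at 4 weeks and 13.9% at 3 weeks, and 34 of the 51 (66.7%) had the lower value at 4 weeks. Over all probes the medians were 14% at 4 weeks and 50% at 3 weeks, and 79.7% of the 2741 probes with a value at both ages had the lower one at 4 weeks. The other 246 probes bright at both ages, which are unnamed here, carry several genes or are the genes left out, had 9.26% and 14.3%. The 90 probes with 1 gene bright at 4 weeks only had 9.51% at 4 weeks and 56.0% at 3 weeks, where 79 of them were above 0 on any array. The 57 bright at 3 weeks only had 13.4% and 16.3%. Of those 246 probes, 35.8% were called higher and 42.7% lower after quantile normalization, and their median log2 difference was -0.06. The sets were built on brightness, so no test of these differences is given.

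Of traits that the rule did not use, the chromosome, the number of transcripts, the order along the genome and the listed genes were counted. Whether the 51 genes share other traits was not tested. By locus code, 13 lie on chromosome 1, 5 on chromosome 2, 8 on chromosome 3, 10 on chromosome 4 and 15 on chromosome 5, where all 692 probes with 1 gene have 174, 124, 130, 120 and 143. RefSeq lists more than 1 transcript for 19 of the 51 (37.3%) and for 276 of 690 probes with 1 gene found there (40.0%). In the RefSeq order of genes AT5G55570 and AT5G55580 are direct neighbours, with 0 genes between them, while the next closest pair, AT3G17550 and IAA31, has 6. The neighbours did not follow each other: AT5G55570 was even at 3 weeks, with 0.825, 0.913, 0.866 and 0.880, and AT5G55580 was not. Listed genes for antioxidant enzymes (11) and for starch and sucrose (6) had no probe with 1 gene. The same held for the short lists for root (4), flower (4) and pollen or seed (3), so the tissue could not be checked from these markers. Of 3 listed senescence genes only PPDK was measured, and it was not in the set. PPDK was called lower after quantile normalization, under the common median and after cyclic loess, but higher without scaling.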

How the data were processed

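Total RNA of 8 samples was measured on arrays. The deposited table holds an intensity for each of 3439 probes in 8 samples, and nothing in the labels or the table says how the authors made it. Probe names came from the platform annotation (692 probes with 1 gene, 870 with several, 1877 unnamed here), with symbols updated from RefSeq (assembly TAIR10.1), where 690 were found. No sequences were used here.

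Ranks within arrays (ties averaged) chose the members. For the age difference, intensities were quantile normalized between arrays, raised to the normalized intensity at rank 1099 (the zeros on the array with most; 0.123), converted to log2 and fitted with limma 3.58.1 in R 4.3.3 (lmFit, eBayes, two-sided, age alone, Benjamini-Hochberg over 3439 probes, threshold 0.05). The script was tested on simulated data. Cyclic loess used log2 of intensity plus 0.05. The other scalings took as floor the highest value at rank 1099 on any array.

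Between the ages, deviations from the age means of same-numbered arrays correlated weakly, at 0.171, 0.213, 0.171 and 0.236. Differently numbered arrays within 1 and 2, or within 3 and 4, correlated at 0.051 to 0.106. Arrays of 1 or 2 against those of 3 or 4 correlated at -0.184 to -0.088. The values thus also follow the split of 1 and 2 from 3 and 4, and whether the numbers pair the samples was not tested. Depth does not apply to arrays, and their number limits the precision.

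Members and lists were chosen with earlier results of these data known. The rule for named genes took the 10 highest mean ranks, the 8 largest differences each way, genes with a symbol, the 5 widest rank spreads and the probes beside each 20% line. The other members were named after their values were seen, so that each of the 51 is accounted for.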

Additional observations from a re-analysis of the deposited data

How the results depend on the processing

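The number of members was 35 with the top 15% and 63 with the top 25% in place of 20%, 51 with median ranks (50 shared), 55 when only probes with 1 gene were ranked (47 shared), 51 from replicates 1 and 2 alone, 54 from 3 and 4 alone, and 49 to 53 without 1 array. Of the 21 called higher and 18 called lower, scaling moved the counts to 36 and 10 without scaling, 1 and 44 under a common median, and 40 and 1 after cyclic loess, with median differences of 1.64, -2.23 and 0.94 against 0.18. Averaging replicates 1 and 2, and 3 and 4, first left 15 and 9 at the same median. Shares over all probes were not counted for this fit, the replicate block, the single pairs or the fits without 1 array. The median was 0.07 from replicates 1 and 2 alone and 0.29 from 3 and 4 alone. Leaving out 1 array gave 21 to 22 higher, 18 to 19 lower and a median of 0.15 to 0.20. The replicate block gave 21 higher and 17 lower, with a median of 0.18, and changed no call beyond AT5G65220, AT4G32060 and AT1G74070. Under the other alternatives the counts of calls stayed within 1.5 times these.

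Among the 28 genes named by the rule, signs that turned without scaling were those of IAA31 (0.97), PIFI (0.49) and AT5G27860 (1.64). Under a common median they were AT4G22830 (-3.63), AT2G27290 (-1.56), AT1G01080 (-3.21), AT2G46220 (-1.99), AT4G17070 (-0.94), AT1G13370 (-0.44), AT4G19900 (-0.08), AT4G18180 (-0.25), ATSPS4F (-2.08), AT1G12800 (-1.64), AT2G22890 (-1.72) and AT5G65220 (-1.95). After cyclic loess they were AT5G38360 (0.50), AT3G26630 (0.50), RAP74 (0.19), PRA1.B6 (0.41), AT5G11010 (0.43), IAA31 (0.94) and, past the threshold in neither fit, AT5G27860 (0.13). With pairs averaged first, AT5G50350, AT1G01080, AT3G06570, AT2G46220, AT4G17070, PIFI and ATSPS4F lost their call at unchanged differences. The cause was not tested, and turned signs were not counted over all probes.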
